A study of Mus musculus with 50 samples.

Results

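The 31 genes described here encode the enzymes and transporters of glycolysis and a group of genes known to respond to low oxygen, measured in mouse regulatory T (Treg) cells and in their thymic precursors. They were chosen by name from these pathways, and all 31 are among the 55011 gene symbols of the count table. The list sets no threshold on any measured value, but it was chosen with earlier results of these data known. In every fit 30 of them passed the filter on low counts. The exception was Vegfa, the vascular growth factor, which reached at most 1.44 CPM (read counts of a gene scaled to a common library size) in any library and was not tested.

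Glycolysis splits glucose into pyruvate in the cytosol and yields ATP without oxygen, and lactate dehydrogenase turns pyruvate into lactate so that the pathway can go on. Cells sense oxygen through prolyl hydroxylases that mark the factor HIF-1 for destruction. When oxygen is low, HIF-1 persists and raises transcription of most glycolytic enzymes and of the hydroxylase Egln3, while T cells also raise glycolysis on activation and growth through mTOR and Myc. Treg cells at rest are known to rely more on oxidation in mitochondria than activated conventional T cells do, and tissue Treg cells have been described with active glycolysis.

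The 50 libraries fall into 16 groups from 2 experiments, all in male mice whose genotype the labels give as WT. The thymic libraries came from B6.Cg-Foxp3tm1Kuch/J mice, a strain in which Foxp3 reports as GFP, at postnatal days 5, 12 and 49 (D5, D12, D49). P2 progenitors were sorted as CD4+CD8- cells with Foxp3 and without CD25, and P1 progenitors as CD4+CD8- cells with CD25 and without Foxp3, with 3 libraries per population and age. The peripheral libraries were CD4+ cells positive for Foxp3-driven GFP from 20-week-old mice with the allele Foxp3tm3(HBEGF/GFP)Ayr, by which the Foxp3 locus also drives a diphtheria toxin receptor. They came from ear skin, visceral adipose tissue (VAT), liver, lung and spleen, in arms that the sample titles call DT and PBS, with 3 libraries per tissue and arm (4 for VAT). The series text states that receptor-positive and receptor-negative littermates both received diphtheria toxin on 3 consecutive days at 12 weeks of age and then rested for 8 to 9 weeks, with the aim to deplete Treg cells. DT and PBS are therefore the titles' names for the arms, and which littermates each arm holds is not given in the labels. Each library held 500 to 1000 sorted cells.

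Library totals ran from 2521078 to 6981037 counts. Foxp3 averaged 274, 747 and 385 CPM in P2 cells at D5, D12 and D49, against 10.8, 8.07 and 13.3 CPM in P1 cells, and lay between 138 and 501 CPM in all peripheral libraries. Il2ra, which encodes CD25, averaged 14.4, 27.0 and 36.4 CPM in P2 cells, against 115, 134 and 113 CPM in P1 cells. Both sort genes thus followed the labels. No pair of libraries within a group was alike within counting noise. The labels do not tie the libraries to separate animals, and p-values here refer only to how much libraries of a group varied, which could be technical variation. These are bulk measurements, in which a smaller share of cells that use a gene and less RNA of it per cell cannot be told apart.

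Levels set between genes were divided by exon length. Averaged over all groups and scaled to length, Ldha (the main lactate dehydrogenase subunit of muscle and activated T cells) was the most abundant of the 31 genes at 487 CPM per kb. It was followed by Aldoa (aldolase) at 260 CPM per kb and Pkm (pyruvate kinase) at 258 CPM per kb. Gapdh, the dehydrogenase of the middle of the pathway, stood at 109 CPM per kb, and Hk2, an inducible hexokinase, at 1.53 CPM per kb. The members also differed in how far they ranged across groups. The unscaled level of Hk1, the housekeeping hexokinase, was 1.75 times as high in its highest group as in its lowest, while Ldhb, the heart-type lactate dehydrogenase subunit, was 25.1 times as high in P1 cells at D12 as in ear skin cells of the DT arm. Tpi1 (triose phosphate isomerase) and Hk2 each spanned 17.1 times, Egln3 16.4 times and Slc16a3, the exporter of lactate, 14.0 times.

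The mean log2 CPM over all 31 genes, used as a score and given with no test, was highest in ear skin, at 6.29 ± 0.15 in the DT arm and 6.49 ± 0.12 in the PBS arm (SD, n = 3 each). Liver followed at 6.20 ± 0.16 in the DT arm and 6.28 ± 0.13 in the PBS arm, with P1 cells of D5 between them at 6.23 ± 0.01. P1 cells of D12 scored 6.10 ± 0.13, and P1 cells of D49 5.97 ± 0.07. Lung and VAT cells of both arms lay between 5.96 and 6.04. The lower end held P2 cells of D12 at 5.83 ± 0.09, spleen cells at 5.82 ± 0.06 in the DT arm and 5.71 ± 0.10 in the PBS arm, P2 cells of D5 at 5.69 ± 0.07, and P2 cells of D49 at 5.26 ± 0.15. Neighbours in this order overlapped in their libraries with the exception of the lowest step, where every D49 P2 library lay below every library of the other groups. By gene, 7 members had their highest group mean in PBS ear skin, 6 in D12 P1 cells and 4 in PBS liver, and 10 had their lowest in D49 P2 cells.

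**Figure D1:**
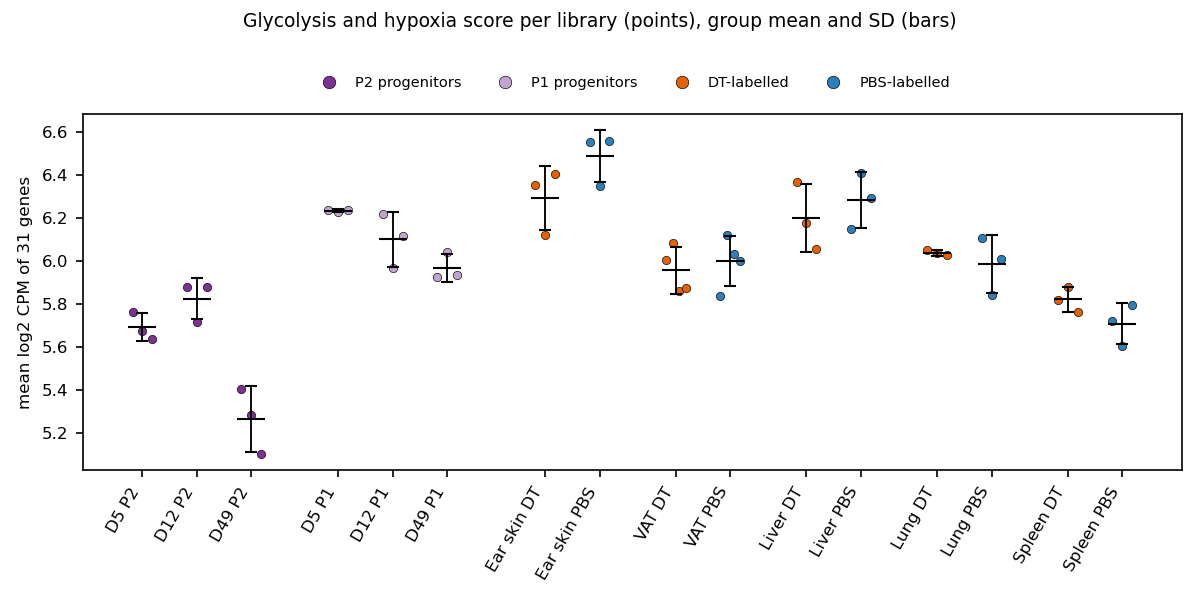
Mean log2 CPM over the 31 genes (vertical axis) in every library (points) of the 16 groups (horizontal axis), with the group mean and SD as bars. Ear skin libraries reach 6.56 and the D49 P2 libraries lie between 5.10 and 5.41, below all others.

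The promoters of several members hold the short core of the sequence that HIF-1 is known to bind. The 250 bases upstream of each listed RefSeq start (GRCm38.p6) were searched on both strands. A gene counted if any of its windows matched, so genes with several listed starts had more chances to match. All genes together had 32851 windows, and members such as Pfkm and Aldoa had several each. ACGTG occurred for 17 of the 30 members with a listed promoter (56.7%), against 18.5% of 27025 genes. GCGTG, the other form of the core, occurred for 20 of 30 members (66.7%), against 30.9% of genes. The palindrome CACGTG, which contains ACGTG and is also the core known for Myc and related factors, occurred for 6 of 30 (20%), against 6.86% of genes. At least 1 of the forms ACGTG and GCGTG was found for 27 of 30 members (90%), against 41.5% of genes. Slc2a3 had no listed promoter. These are matches of letters and not sites of binding, and the list was in part made of known HIF-1 targets. The windows of 4 genes on which the results below turn are shown, each read 5′ to 3′ on the strand of its gene, with ACGTG or its reverse complement CACGT in capitals. They are Egln3 (chr12:54203875-54204124, minus strand), Slc16a3 (chr11:120948817-120949066, plus strand), Pgk1 (chrX:106186850-106187099, plus strand) and Tpi1 (chr6:124814159-124814408, minus strand), which holds neither form. The RefSeq starts of Egln3 and Tpi1 did not match a transcript start in the annotation GENCODE M21. In that annotation the Tpi1 window lies partly inside the gene (chr6:124810586-124814296), and the Slc16a3 window wholly inside (chr11:120948480-120960868).
Egln3: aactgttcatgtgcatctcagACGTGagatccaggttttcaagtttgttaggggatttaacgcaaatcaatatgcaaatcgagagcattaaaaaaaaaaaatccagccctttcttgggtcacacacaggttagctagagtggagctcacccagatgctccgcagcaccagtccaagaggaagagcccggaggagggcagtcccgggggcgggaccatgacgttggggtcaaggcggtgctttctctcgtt
Slc16a3: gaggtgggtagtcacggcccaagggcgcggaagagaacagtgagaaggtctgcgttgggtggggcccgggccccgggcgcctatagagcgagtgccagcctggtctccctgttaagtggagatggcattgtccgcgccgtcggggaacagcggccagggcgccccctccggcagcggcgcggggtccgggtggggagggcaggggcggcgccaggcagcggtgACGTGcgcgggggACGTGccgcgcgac
Pgk1: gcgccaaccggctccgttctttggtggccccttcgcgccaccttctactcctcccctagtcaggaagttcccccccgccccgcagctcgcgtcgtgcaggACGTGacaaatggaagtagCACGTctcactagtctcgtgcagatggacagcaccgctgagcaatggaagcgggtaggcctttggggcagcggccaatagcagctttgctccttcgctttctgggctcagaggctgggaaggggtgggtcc
Tpi1: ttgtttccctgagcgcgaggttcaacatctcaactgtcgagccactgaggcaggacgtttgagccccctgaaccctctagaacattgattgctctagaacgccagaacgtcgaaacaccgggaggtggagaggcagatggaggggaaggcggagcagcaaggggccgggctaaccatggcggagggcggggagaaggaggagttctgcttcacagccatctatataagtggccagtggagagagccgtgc

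P2 cells, sorted with Foxp3 and without CD25, held less RNA of many glycolytic enzymes than P1 cells of the same age. The libraries of the 3 ages are separate, and a member is said to have changed where its adjusted p was below 0.05 in edgeR's quasi-likelihood test with Benjamini-Hochberg adjustment over all 14696 genes tested. At D5 none of 30 members was higher and 14 were lower in P2 cells, where 15.2% of all genes changed, 6.79% higher and 8.4% lower. At D12 3 were higher and 13 lower, where 41.4% of all genes changed, 17.6% higher and 23.8% lower. At D49 2 were higher and 13 lower, where 29.5% changed, 16.6% higher and 12.9% lower. The median log2 fold change of the members was -0.55, -0.40 and -0.54 at the 3 ages, against -0.0027, -0.08 and 0.10 for all genes. Lower at every age were Aldoa, Tpi1, Pgk1, Pgam1, Eno1, Pkm and Ldhb, which act at steps from aldolase to lactate dehydrogenase. Each of these shares sequence with other annotated genes, as given further below. Gapdh and Ldha, of the same stretch, were lower at 2 of the 3 ages. The share of all genes lower at every age was not computed.

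**Figure D2:**
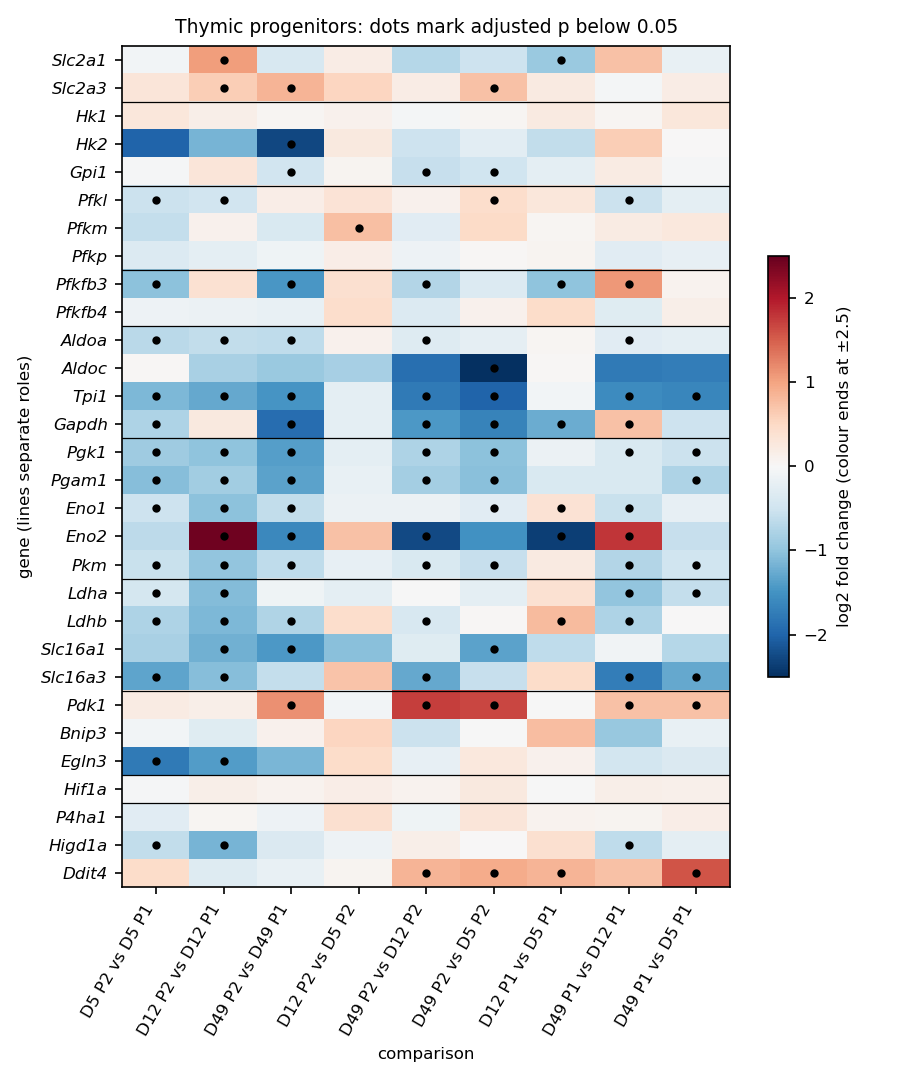
Log2 fold change (colour, ending at ±2.5) of the 30 tested members (vertical axis, grouped by role) in P2 against P1 cells and between ages (horizontal axis), with dots for adjusted p below 0.05. Aldoa, Tpi1, Pgk1, Pgam1, Eno1, Pkm and Ldhb are blue and dotted in all 3 columns of P2 against P1, Tpi1 with -1.12, -1.28 and -1.48.

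Tpi1 (chr6:124810586-124814296 in mm10), which interconverts the triose phosphates, was the member with the smallest adjusted p at D5. It had 159.5, 160.1 and 154 CPM in P2 cells of D5, against 376, 341 and 332 CPM in P1 cells. At D12 it had 132, 151 and 132 CPM in P2 cells, against 349.7, 283 and 328 CPM in P1 cells, and at D49 36.6, 41.1 and 36.5 CPM in P2 cells, against 112, 128 and 94.6 CPM in P1 cells. At each age every P2 library lay below every P1 library. The log2 fold changes were -1.12 ± 0.12 at D5 (SE, adjusted p = 1.55e-06), -1.28 ± 0.12 at D12 (adjusted p = 1.51e-07) and -1.48 ± 0.13 at D49 (adjusted p = 9.63e-08).

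Pgk1 (chrX:106187100-106203699), phosphoglycerate kinase, the first ATP-yielding step, had 79.7, 84.3 and 84.1 CPM in P2 cells of D5, against 162, 143 and 166 CPM in P1 cells. At D49 it had 35.2, 38.0 and 43.7 CPM in P2 cells, against 109.7, 107 and 107 CPM in P1 cells. The populations did not overlap, and the log2 fold change was -0.90 ± 0.14 at D5, -0.999 ± 0.14 at D12 and -1.39 ± 0.14 at D49 (adjusted p = 6.58e-07 at D49). Pkm, which makes pyruvate, had 1141, 1062 and 1237 CPM in P2 cells of D12, against 2442, 1830 and 2236 CPM in P1 cells. That was its largest difference, -0.99 ± 0.10 on the log2 scale, against -0.56 ± 0.10 at D5 and -0.64 ± 0.10 at D49. Pgam1 (phosphoglycerate mutase) fell by 1.06, 0.87 and 1.34, Eno1 (the common enolase) by 0.52, 1.02 and 0.61, and Aldoa by 0.67, 0.61 and 0.64 on the log2 scale in P2 cells at D5, D12 and D49. Gapdh was lower at D5 (-0.76 ± 0.24) and D49 (-1.91 ± 0.25) and did not pass at D12, where it had 325, 330.3 and 322 CPM in P2 cells and 295, 241 and 249 CPM in P1 cells. All P2 libraries of D12 lay above all P1 libraries there, the opposite order to the other ages.

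Genes of lactate handling were lower as well. Ldhb (chr6:142490249-142507957) had 141, 141 and 164 CPM in P2 cells of D12, against 329.8, 268 and 333 CPM in P1 cells, with no overlap (log2 fold change -1.13 ± 0.14, adjusted p = 2.27e-06). Its difference was -0.77 ± 0.14 at D5 and -0.75 ± 0.14 at D49. Ldha was lower at D5 (-0.45 ± 0.14) and D12 (-1.08 ± 0.15), while at D49 it had 940.2, 1231 and 1594 CPM in P2 cells and 1469, 1446 and 1354 CPM in P1 cells, with overlap and no call. Slc16a3 (chr11:120948480-120960868), a lactate exporter of cells with high glycolysis, had 28.2, 20.5 and 34.5 CPM in P2 cells of D5, against 63.8, 72.3 and 75.4 CPM in P1 cells. At D12 it had 50.1, 45.5 and 44.5 CPM in P2 cells, against 92.8, 97.4 and 87.7 CPM in P1 cells. The populations were apart at both ages (-1.32 ± 0.24 and -1.06 ± 0.23 on the log2 scale). Slc16a1, the more general lactate carrier, was lower at D12 (-1.21 ± 0.39) and D49 (-1.43 ± 0.41).

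The hydroxylase Egln3 (chr12:54178981-54203860), the most responsive of the oxygen-sensing hydroxylases to HIF-1, had 3.99, 3.79 and 7.91 CPM in P2 cells of D5, against 21.1, 17.5 and 16.1 CPM in P1 cells. At D12 it had 6.76, 9.15 and 6.48 CPM in P2 cells, against 26.6, 14.4 and 15.6 CPM in P1 cells. Every P2 library lay below every P1 library at these ages, and the log2 fold changes were -1.76 ± 0.47 (adjusted p = 0.0125) and -1.40 ± 0.46 (adjusted p = 0.0196). At D49 it had 2.52, 2.17 and 12.6 CPM in P2 cells, against 12.5, 14.5 and 15.2 CPM in P1 cells, where the highest P2 library was within the P1 range and the gene did not pass. Hif1a itself, the oxygen-regulated subunit of HIF-1, ranged over 132 to 173 CPM in P2 libraries and 123 to 168 CPM in P1 libraries, and passed in none of the comparisons between thymic groups. Higd1a, a small mitochondrial protein induced by hypoxia, was lower in P2 cells at D5 (-0.62 ± 0.17) and D12 (-1.15 ± 0.17). Hif1a, the further HIF-1 targets Bnip3, P4ha1 and Ddit4, and Pfkp, Pfkm, Pfkfb4, Aldoc and Hk1 passed at none of the ages.

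The upper part of the pathway went less evenly. Pfkfb3, which makes the activator of phosphofructokinase, was lower in P2 cells at D5 (-1.02 ± 0.21) and D49 (-1.45 ± 0.21) and did not pass at D12. Pfkl, the liver-type phosphofructokinase subunit, was lower at D5 (-0.53 ± 0.14) and D12 (-0.48 ± 0.14). Hk2 and the isomerase Gpi1 were lower at D49 (-2.28 ± 0.80 and -0.49 ± 0.14). The exceptions in the other direction were a few. Slc2a3, a high-affinity glucose transporter of lymphocytes and neurons, was higher in P2 cells at D12 (0.61 ± 0.16) and D49 (0.85 ± 0.16), with 95.1, 82.9 and 100.2 CPM in P2 cells of D49, against 61.0, 49.2 and 52.3 CPM in P1 cells. Slc2a1, the glucose transporter of most dividing cells, was higher at D12 (1.04 ± 0.27). The neuronal enolase Eno2 was higher in P2 cells at D12, with 23.1, 16.4 and 19.8 CPM, against 4.09, 3.94 and 2.35 CPM in P1 cells (2.43 ± 0.55). At D49 Eno2 was lower in P2 cells (-1.62 ± 0.56), whose libraries of 9.79, 2.17 and 0.213 CPM overlapped the 8.12, 11.3 and 17.8 CPM of P1 cells.

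Pdk1, a kinase that inhibits pyruvate dehydrogenase in mitochondria and a HIF-1 target, stood apart from the enzymes. It had 263, 222 and 251 CPM in P2 cells of D49, against 105, 115 and 130.0 CPM in P1 cells, while at D5 it had 80.5, 90.3 and 68.9 CPM in P2 cells and 66.3, 69.3 and 77.1 CPM in P1 cells. The populations were apart at D49 only (log2 fold change 1.14 ± 0.14, adjusted p = 3.81e-06). The change between D5 and D49 was larger in P2 than in P1 cells by 0.95 ± 0.19 on the log2 scale (adjusted p = 0.0354), the only member to pass this test of the difference, where 0.374% of all genes passed. Pdk1 did not pass in 12 of 18 alternative settings, with adjusted p values up to 0.176. Among them were leaving out any 1 library of D49 P1, D5 P1 or D5 P2 cells, the share of low genes in the model and no filter on low counts. The count was 0 without any 1 of those 9 libraries, and 8 members passed without D49 P2 replicate 1.

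Of the differences between P2 and P1 cells, 9 of 14 at D5, 9 of 16 at D12 and 10 of 15 at D49 held under every alternative setting. Aldoa, Eno1, Ldhb, Pgk1, Pkm and Tpi1 were among them at each age. Without D5 P2 replicate 1 the count at D5 was 9. Several measures of the libraries moved with these comparisons, and their part in the result was not tested. The share of counts in genes averaging under 1 CPM was 0.904% to 1.86% in P1 libraries of D12, against 0.289% to 0.355% in P2 libraries of D12. With that share in the model, Eno2, Slc16a3, Slc2a1, Slc2a3, Egln3 and Pfkl no longer passed at D12, and Egln3 was at -0.44 and Eno2 at 0.59 on the log2 scale. Summed B cell markers were 321 to 365 CPM in P2 cells and 99.9 to 158 CPM in P1 cells at D5, 205 to 257 CPM and 112 to 155 CPM at D12, and 230 to 257 CPM and 106 to 120 CPM at D49. Ighm made up most of this sum, with means of 330 CPM in P2 cells and 113 CPM in P1 cells at D5. In each population of D5, 2 of the 8 B cell genes had no counts. Summed fibroblast markers, led by Fbln1, were 123 to 140 CPM in P2 cells and 194 to 222 CPM in P1 cells at D5, 41.7 to 75.7 CPM and 78.1 to 105 CPM at D12, and 9.51 to 30.7 CPM and 15.6 to 37.5 CPM at D49. Fbln1 alone averaged 130 CPM in P2 cells and 208 CPM in P1 cells at D5. In P2 cells of D49 the share of low genes was 1.68% and 2.26% in replicates 2 and 3, whose summed macrophage and monocyte markers, 8 genes led by Lyz2, were 73.9 and 75.7 CPM. Without those libraries 13 members passed at D49, and Gapdh was at -1.14 and Tpi1 at -1.62 on the log2 scale, while Eno2, Hk2, Gpi1 and Slc16a1 no longer passed.

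Cell cycle genes were lower in P2 cells too. Of 27 such genes none was higher at any age and 7, 27 and 21 were lower at D5, D12 and D49. Their summed level was 5356 to 5592 CPM in P2 cells and 8037 to 8740 CPM in P1 cells at D5, 1513 to 2257 CPM and 4766 to 6011 CPM at D12, and 631 to 1013 CPM and 2001 to 2283 CPM at D49. Their part in the result was not tested.

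Related lists were tested in the same comparisons, where 8.4%, 23.8% and 12.9% of all genes were lower in P2 cells at D5, D12 and D49. Of 17 tested genes for other isoforms and side steps of glycolysis, 0 were higher and 1 lower in P2 cells at D5, 2 and 3 at D12, and 0 and 4 at D49, so the lower share was below that of all genes at D5 and D12. The gene lower at every age was Eno3, the muscle enolase, with means of 80.3, 162 and 44.5 CPM in P2 cells of D5, D12 and D49, against 234, 428 and 168 CPM in P1 cells (adjusted p = 2.39e-07 at D49). In the pentose phosphate pathway, which branches from glycolysis to make NADPH and ribose, 2, 4 and 5 of 12 genes were lower at D5, D12 and D49 and none was higher. Its transketolase Tkt averaged 169 CPM in P2 cells and 421 CPM in P1 cells at D49 (log2 fold change -1.26 ± 0.13). Among 28 other genes of the hypoxia response, 6, 12 and 10 were lower and 1, 1 and 3 higher. Fam162a, a mitochondrial target of HIF-1, averaged 53.5 CPM in P2 cells and 127 CPM in P1 cells at D5 (-1.22 ± 0.15), and the cytokine Mif 173 CPM and 407 CPM (-1.21 ± 0.11). Of 14 genes for oxygen sensing and HIF subunits 1, 4 and 0 were higher and 2, 4 and 2 lower. Of 13 genes for pyruvate entry into mitochondria 1, 2 and 1 were higher and 4, 7 and 1 lower. Pdk2, a second kinase of the same step as Pdk1, averaged 66.4 CPM in P2 cells and 32.2 CPM in P1 cells at D49 (1.13 ± 0.23).

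Between ages, several enzymes were lower at D49 in both populations, while Pdk1 and Ddit4 were higher. The later ages are each set against D5 and D12, so these comparisons share libraries. In P2 cells, 4 members were higher and 9 lower at D49 than at D5, where 25.8% of all genes changed, 14.7% higher and 11.1% lower. In P1 cells, 2 were higher and 6 lower, where 10.6% changed, 4.06% higher and 6.5% lower. The median of the members was -0.24 in P2 cells and -0.20 in P1 cells, against 0.08 and 0 for all genes. The P2 count was 5 with the compared libraries alone, 7 with the share of low genes in the model and 8 without D5 P2 replicate 1. Without D49 P1 replicate 3 the P1 count was 5. Calls that held under every alternative setting were 4 of 13 in P2 cells (Tpi1, Pgk1, Gapdh and Pdk1) and 5 of 8 in P1 cells (Tpi1, Pkm, Slc16a3, Pdk1 and Ddit4). Tpi1 was thus the only enzyme of glycolysis to hold as lower in both populations.

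Tpi1 had 159.5, 160.1 and 154, then 132, 151 and 132, then 36.6, 41.1 and 36.5 CPM in P2 cells of D5, D12 and D49. In P1 cells it had 376, 341 and 332, then 349.7, 283 and 328, then 112, 128 and 94.6 CPM. In each population all libraries of D49 lay below all earlier ones, with a log2 fold change from D5 of -1.999 ± 0.13 in P2 cells (adjusted p = 2.04e-09) and -1.64 ± 0.12 in P1 cells (adjusted p = 2.1e-08). Gapdh (chr6:125161715-125166467) had 204, 88.5 and 54.4 CPM in P2 cells of D49, against 371, 391 and 356 CPM at D5 (-1.67 ± 0.25). The libraries of D49 differed among themselves, and without the lower 2 of them, replicates 2 and 3, the difference was -0.90 (adjusted p = 3.53e-06). Pgk1 fell by 1.02 in P2 cells and 0.53 in P1 cells, Pgam1 by 1.05 and 0.77, and Pkm by 0.58 and 0.51 on the log2 scale. Aldoc, the brain-type aldolase, was low throughout and had 0, 2.17 and 0.853 CPM in P2 cells of D49, against 8.39, 5.13 and 6.95 CPM at D5 (-2.71 ± 0.77). In P2 cells Slc16a1 (-1.34 ± 0.41), Gpi1 (-0.50 ± 0.14) and Eno1 (-0.29 ± 0.10) were also lower. In P2 cells Pgam1, Slc16a1 and Gpi1 did not pass without D49 P2 replicates 2 and 3, with the compared libraries alone or with the share of low genes in the model, with adjusted p values up to 0.309, 0.951 and 0.626, and Eno1 did not pass in 9 of 13 settings. The P1 cells were also lower at D49 in Slc16a3 (-1.28 ± 0.24) and Ldha (-0.60 ± 0.14).

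Pdk1 was higher at D49 in P2 cells (1.67 ± 0.14, adjusted p = 3.48e-08) and in P1 cells (0.73 ± 0.14, adjusted p = 0.00105), with no overlap of D49 and D5 libraries in either. Ddit4, an inhibitor of mTOR induced by hypoxia and other stresses, had 103, 57.7 and 94.3 CPM in P1 cells of D49, against 21.3, 33.2 and 31.4 CPM at D5. Every library of D49 was above those of D5 there (1.57 ± 0.28, adjusted p = 0.000647). In P2 cells Ddit4 had 94.8, 75.5 and 44.1 CPM at D49 and 48.5, 33.2 and 34.5 CPM at D5, with overlap (0.92 ± 0.28). Slc2a3 and Pfkl were the other members higher in P2 cells of D49, by 0.72 ± 0.16 and 0.44 ± 0.14 on the log2 scale.

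Between D12 and D5 in P2 cells only Pfkm, the muscle-type phosphofructokinase subunit, was higher at D12 (0.76 ± 0.21), where 5.16% of all genes changed, 1.81% higher and 3.35% lower, and it did not pass when any 1 of the 6 libraries compared was left out. The count, 1 of 30, was near the share of all genes, and it was 10 with the compared libraries alone, 4 with the share of low genes in the model and 3 with DESeq2. In P1 cells 3 members were higher and 4 lower at D12, where 18.3% of all genes changed, 10.1% higher and 8.16% lower. Eno2 (-2.36 ± 0.55), Gapdh (-1.25 ± 0.24), Pfkfb3 (-1.001 ± 0.21) and Slc2a1 (-0.92 ± 0.27) were lower, and Ddit4 (0.84 ± 0.28), Ldhb (0.80 ± 0.13) and Eno1 (0.37 ± 0.10) higher. None of these 7 passed with the share of low genes in the model, and 4 passed without D12 P1 replicate 1 or 3 or without D5 P1 replicate 1 or 2.

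Between D49 and D12, 2 members were higher and 11 lower in P2 cells, where 15% of all genes changed, 9.02% higher and 5.97% lower. In P1 cells 4 were higher and 10 lower, where 23.7% changed, 10.2% higher and 13.5% lower. The P2 count was 2 with the compared libraries alone, 2 with the share of low genes in the model, 7 without D12 P2 replicate 3 and 8 without D49 P2 replicate 2. The P1 count was 9 without D49 P1 replicate 3. Only 2 of 13 calls in P2 cells and 3 of 14 in P1 cells held under every alternative setting. In P2 cells Pdk1 (1.74 ± 0.14) was higher, as was Ddit4 (0.85 ± 0.28) with overlap, and Eno2 (-2.25 ± 0.56), Tpi1 (-1.76 ± 0.13), Gapdh (-1.43 ± 0.25) and Slc16a3 (-1.27 ± 0.25) had the largest decreases. Neither the compared libraries alone nor the model with the share of low genes called Eno2, Gapdh or Slc16a3. In P1 cells Slc16a3 (-1.74 ± 0.24) and Tpi1 (-1.56 ± 0.12) had the largest decreases, and Pdk1 (0.73 ± 0.14), Pfkfb3 (1.09 ± 0.21), Eno2 (1.79 ± 0.55) and Gapdh (0.72 ± 0.24) were higher. With the share of low genes in the model Eno2 was at -0.12 and Gapdh at -0.35 in P1 cells, the opposite sign, and the P1 count was 4. All 27 cell cycle genes were lower at D49 than at D5 in both populations.

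**Figure D3:**
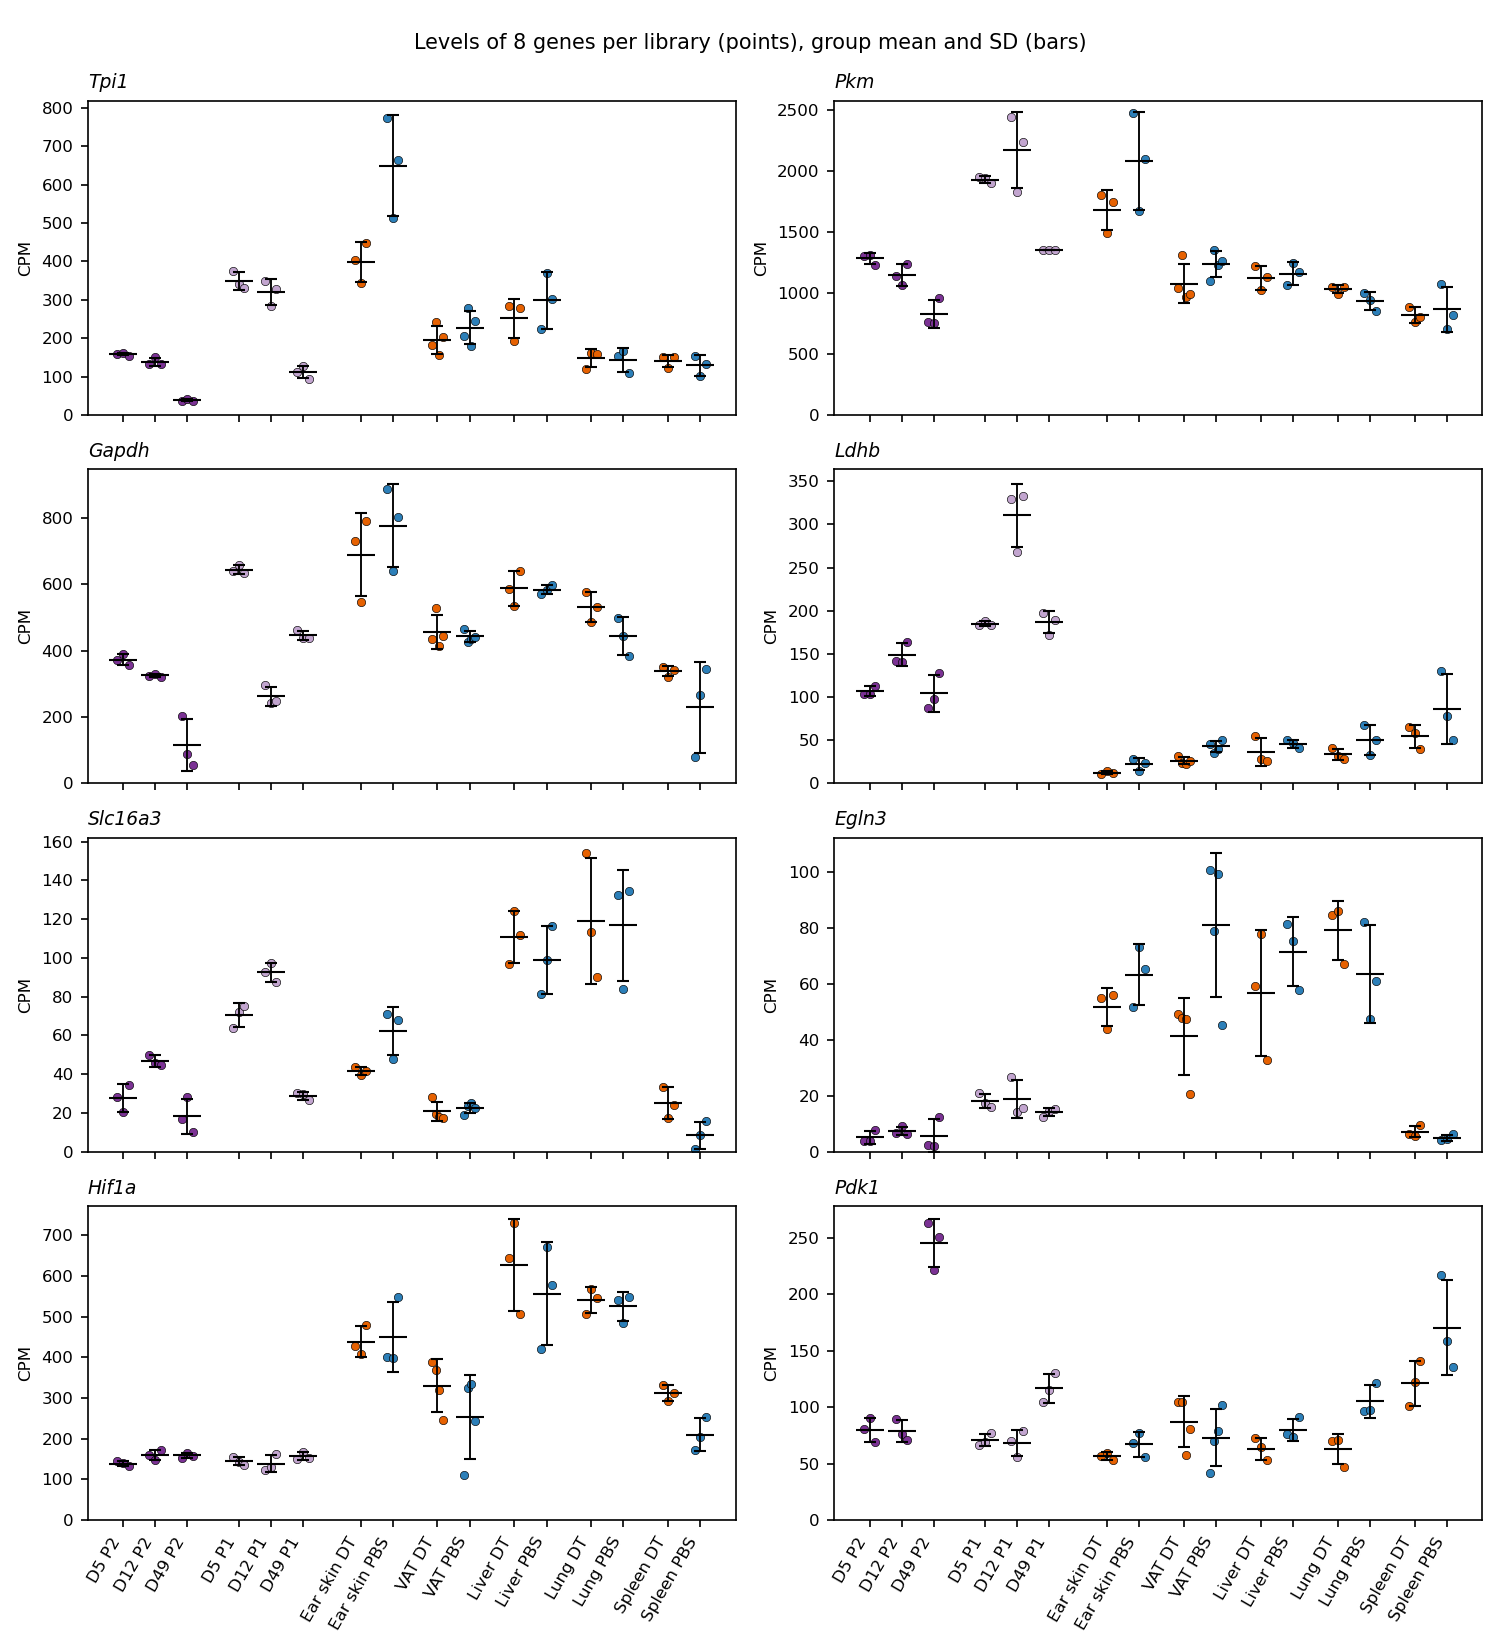
CPM (vertical axis, from 0) of 8 members in every library (points) of the 16 groups (horizontal axis), with the group mean and SD as bars. Tpi1 is lowest in D49 P2 cells (36.5 to 41.1 CPM) and highest in PBS ear skin (512 to 773 CPM), and Egln3 is at most 12.6 CPM in spleen and P2 cells.

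Treg cells of ear skin differed from spleen Treg cells in these genes in both arms, with the most members called there. Liver cells differed as well, but in the DT arm only Egln3, Hif1a and Slc16a3 held under every alternative setting. The DT liver count of 11 fell to between 4 and 7 when any 1 of the 6 libraries compared was left out. In PBS lung, 6 of 30 members were called, near the share of all genes. Each tissue of an arm is set against the same 3 spleen libraries of that arm, so the tissues of an arm are not independent of each other, while the arms share no library. In the DT arm, ear skin had 12 members higher and 3 lower than spleen, where 22.1% of 17731 genes changed, 10.5% higher and 11.6% lower. Ear skin of the PBS arm had 17 higher and 2 lower, where 23.7% changed, 11.1% higher and 12.5% lower. Liver had 10 higher and 1 lower in the DT arm, where 13.3% changed (8.18% higher, 5.08% lower), and 11 higher and 2 lower in the PBS arm, where 17% changed (9.15% higher, 7.85% lower). Lung had 5 higher and 3 lower in the DT arm, where 14.6% changed (8.48% higher, 6.15% lower), and 5 higher and 1 lower in the PBS arm, where 15.9% changed (8.14% higher, 7.79% lower). VAT had 5 higher and 1 lower in the DT arm, where 8.85% changed (5.7% higher, 3.15% lower), and 9 higher and 2 lower in the PBS arm, where 14.9% changed (8.67% higher, 6.27% lower).

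The members' median log2 fold change was 0.46 in the DT arm and 0.50 in the PBS arm for ear skin, against 0.13 and 0.14 for all genes. It was 0.43 and 0.47 for liver (all genes 0.01 and -0.02), 0.12 and 0.20 for lung (all genes 0.01 and 0.04), and 0.11 and 0.34 for VAT (all genes 0.03 and -0.06). With size factors of the RLE type the median of all genes in ear skin was 0.28 in the DT arm and 0.23 in the PBS arm, and the changes in ear skin are to be read relative to that shift. The members called in both arms had the same sign in each arm. They were 14 in ear skin (93.3% of the DT calls and 73.7% of the PBS calls), 9 in liver (81.8% and 69.2%), 6 in VAT (100% and 54.5%) and 5 in lung (62.5% and 83.3%). The same shares over all genes were not computed, so this overlap is not shown to be particular to the members.

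**Figure D4:**
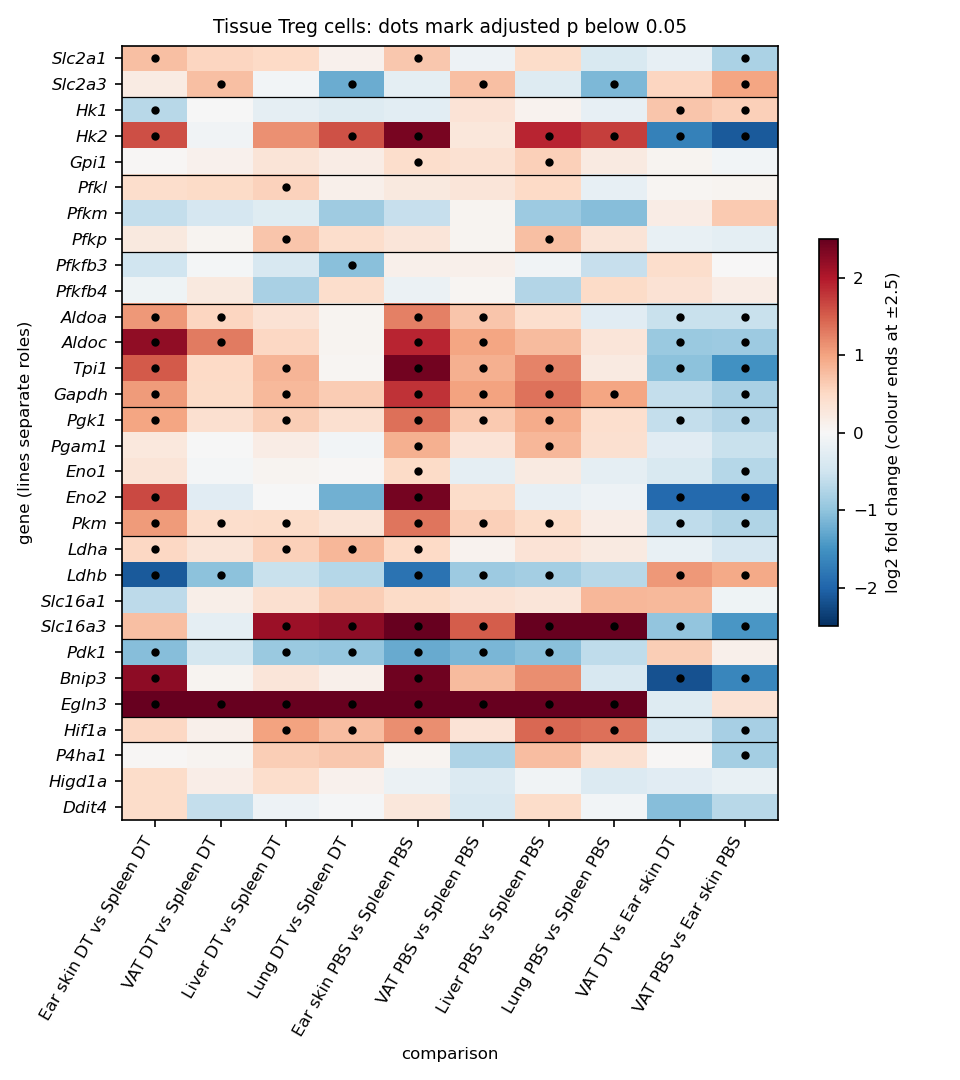
Log2 fold change (colour, ending at ±2.5) of the 30 tested members (vertical axis, grouped by role) in each tissue against spleen and in VAT against ear skin, in the DT and PBS arms (horizontal axis), with dots for adjusted p below 0.05. Egln3 is dotted and red in all 8 columns against spleen, with 2.58 to 4.12 on the log2 scale.

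Egln3 was the member with the largest difference by fold in 7 of these 8 comparisons. In the DT arm it had 55.2, 43.9 and 56.0 CPM in ear skin, 49.3, 47.7, 47.5 and 20.7 CPM in VAT, 59.2, 77.8 and 33.0 CPM in liver and 84.9, 86.0 and 67.1 CPM in lung, against 6.47, 5.59 and 9.51 CPM in spleen. In the PBS arm it had 51.7, 73.2 and 65.3 CPM in ear skin, 101, 78.8, 99.4 and 45.5 CPM in VAT, 81.5, 75.5 and 57.8 CPM in liver and 82.1, 47.5 and 61.1 CPM in lung, against 4.12, 4.50 and 6.24 CPM in spleen. Every tissue library lay above every spleen library of its arm. The log2 fold changes in the DT arm were 2.89 ± 0.34 in ear skin, 2.58 ± 0.33 in VAT, 3.00 ± 0.34 in liver and 3.47 ± 0.34 in lung (adjusted p = 7.26e-07 or lower). In the PBS arm they were 3.76 ± 0.35, 4.12 ± 0.35, 3.90 ± 0.35 and 3.75 ± 0.35 (adjusted p = 1.83e-09 or lower), which in VAT is 17.3-fold. These 8 differences held under every alternative setting. Of all member calls against spleen in the DT arm, 9 of 15 in ear skin, 1 of 6 in VAT, 3 of 11 in liver and 5 of 8 in lung did so. In the PBS arm 14 of 19, 4 of 11, 7 of 13 and 4 of 6 did so.

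Slc16a3, the lactate exporter, was highest in lung and liver. In the DT arm it had 154, 113 and 90.0 CPM in lung, 97.0, 124 and 112 CPM in liver, 43.5, 39.4 and 41.4 CPM in ear skin and 28.4, 19.4, 17.9 and 17.5 CPM in VAT, against 33.6, 17.6 and 24.3 CPM in spleen. Lung (2.23 ± 0.36) and liver (2.14 ± 0.36) passed in this arm, ear skin (0.75 ± 0.36, adjusted p = 0.128) and VAT (-0.23 ± 0.34, adjusted p = 0.783) did not. In the PBS arm it had 132, 83.9 and 134 CPM in lung, 81.5, 98.8 and 116 CPM in liver, 71.1, 48.1 and 68.0 CPM in ear skin and 18.9, 23.7, 25.2 and 22.5 CPM in VAT, against 1.48, 8.42 and 15.6 CPM in spleen. All 4 tissues passed, with 3.86 ± 0.40 in lung, 3.60 ± 0.40 in liver, 2.97 ± 0.39 in ear skin and 1.51 ± 0.37 in VAT. The spleen library with 1.48 CPM, replicate 1 of the PBS arm, stood apart from the other two. Without it the log2 fold changes were 3.30, 3.04, 2.40 and 0.96, and all still passed (adjusted p = 0.0305 in VAT). The PBS call of VAT was lost in at least 1 other setting, while the other Slc16a3 calls against spleen held under every alternative setting.

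**Figure D5:**
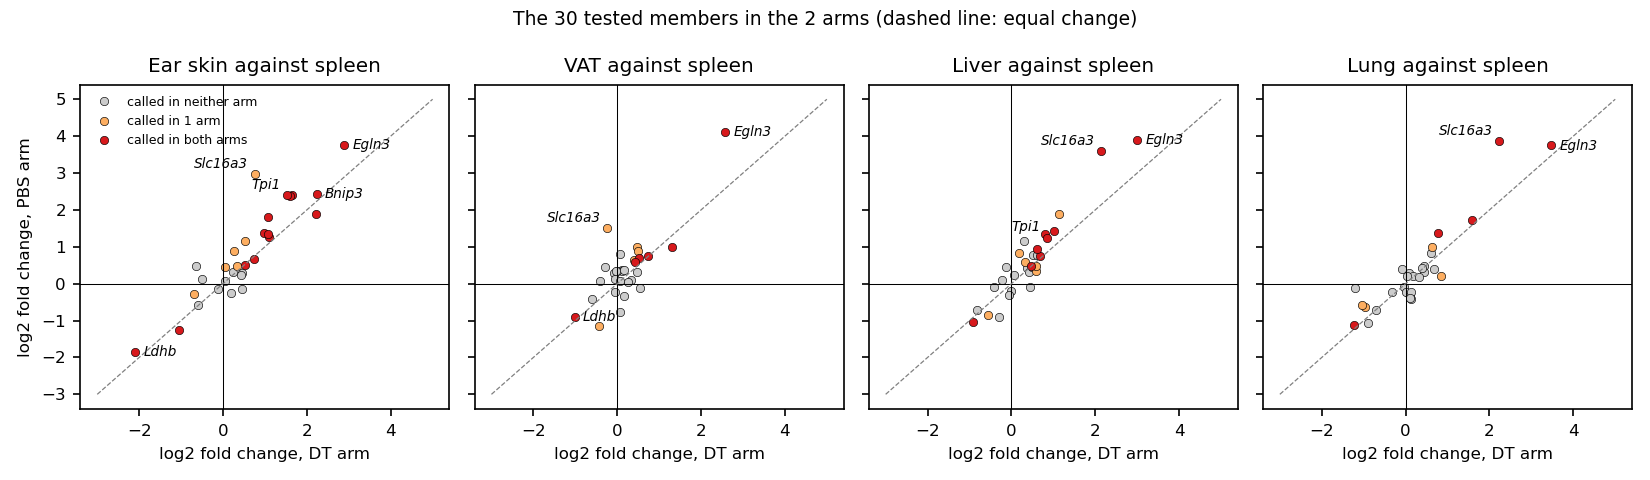
Log2 fold change against spleen in the DT arm (horizontal axis) and in the PBS arm (vertical axis) for each of the 30 tested members (points) in 4 tissues, coloured by the number of arms in which the member passed. Egln3 lies farthest out in ear skin and VAT, and Slc16a3 lies above the line of equal change, as in ear skin with 0.75 in the DT arm and 2.97 in the PBS arm.

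Tpi1 rose in ear skin of both arms. It had 405, 344 and 449 CPM in ear skin of the DT arm, against 149.8, 123 and 151 CPM in spleen, and 773, 512 and 664 CPM in ear skin of the PBS arm, against 154, 100.2 and 134 CPM in spleen. Ear skin and spleen libraries were far apart in both arms, with log2 fold changes of 1.53 ± 0.22 (adjusted p = 2.39e-06) and 2.41 ± 0.22 (adjusted p = 5.02e-10). In liver Tpi1 was higher by 0.84 ± 0.22 and 1.25 ± 0.22, and in VAT by 0.90 ± 0.20 in the PBS arm, while lung had 120.0, 162 and 159.5 CPM in the DT arm and 153, 167 and 109 CPM in the PBS arm and did not pass.

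Pkm had 1802, 1495 and 1744 CPM in ear skin of the DT arm, against 888, 766 and 805 CPM in spleen, and 2475, 1669 and 2098 CPM in ear skin of the PBS arm, against 1070, 708 and 818 CPM in spleen. Again no ear skin library reached down to the spleen libraries (1.07 ± 0.15 and 1.35 ± 0.15). Aldoa was higher in ear skin by 1.09 ± 0.16 and 1.27 ± 0.16 and Pgk1 by 0.98 ± 0.20 and 1.39 ± 0.20 in the DT and PBS arms. In VAT Aldoa was higher by 0.53 ± 0.15 and 0.70 ± 0.15 and Pkm by 0.43 ± 0.14 and 0.60 ± 0.14. Liver also had more Pgk1 (0.62 ± 0.20 and 0.93 ± 0.20), Pfkp, the platelet-type phosphofructokinase subunit (0.69 ± 0.17 and 0.76 ± 0.17), and Pkm (0.47 ± 0.15 and 0.47 ± 0.15, with overlap in the PBS arm). Ldha was higher in ear skin (0.51 ± 0.17 and 0.51 ± 0.17, with overlap in the PBS arm) and, in the DT arm, in lung (0.84 ± 0.17) and liver (0.59 ± 0.17). Gapdh was higher in ear skin (1.06 ± 0.27 in the DT arm, 1.81 ± 0.27 in the PBS arm) and liver (0.81 ± 0.27 and 1.36 ± 0.27), and in the PBS arm also in VAT (0.998 ± 0.25) and lung (0.98 ± 0.27). Its 3 PBS spleen libraries had 78.3, 265 and 344 CPM, and without the lowest, replicate 1, the PBS values were 1.36 in ear skin, 0.93 in liver, 0.57 in VAT and 0.56 in lung, all past the threshold. Of the Gapdh calls against spleen in both arms, only that of PBS ear skin held under every alternative setting.

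The remaining enzymes were called in the PBS arm alone or in liver. Pgam1 was higher in PBS ear skin (0.89 ± 0.25) and PBS liver (0.84 ± 0.25), Eno1 in PBS ear skin (0.48 ± 0.15, with overlap), Pgk1 in PBS VAT (0.65 ± 0.18) and Pfkl in DT liver (0.58 ± 0.18). Gpi1 was higher in PBS ear skin (0.44 ± 0.15, with overlap) and PBS liver (0.59 ± 0.15), and passed in neither without spleen PBS replicate 1 (adjusted p = 0.293 and 0.0752).

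The less abundant isoforms set ear skin further apart. Aldoc had 78.9, 70.3 and 77.1 CPM in ear skin of the DT arm, against 22.4, 18.6 and 8.19 CPM in spleen (2.22 ± 0.31), and 57.3, 34.4 and 57.0 CPM in ear skin of the PBS arm, against 18.8, 9.59 and 13.9 CPM in spleen (1.90 ± 0.31). Aldoc was also higher in VAT, by 1.303 ± 0.30 in the DT arm and 0.995 ± 0.30 in the PBS arm. Eno2 was higher in ear skin by 1.64 ± 0.51 and 2.39 ± 0.51, and Hk2 by 1.60 ± 0.55 and 2.38 ± 0.56. Hk2 had 19.0, 15.6 and 18.2 CPM in lung of the DT arm, against 3.15, 8.18 and 6.08 CPM in spleen, with no overlap (1.59 ± 0.55), and it was higher in lung (1.72 ± 0.55) and liver (1.90 ± 0.55) of the PBS arm, where libraries overlapped with spleen. Scaled to length, Hk2 made up 20.8% ± 7.25 and 23.7% ± 6.07 of the Hk2 and Hk1 sum in ear skin of the DT and PBS arms, against 5.26% ± 2.39 and 4.84% ± 4.15 in spleen (SD, n = 3 each). In VAT that share was 4.61% ± 2.40 and 4.60% ± 1.105 (SD, n = 4 each).

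Ldhb and Pdk1 went the other way. Ldhb had 10.9, 14.6 and 11.5 CPM in ear skin of the DT arm, against 65.7, 58.3 and 39.4 CPM in spleen, and 28.7, 14.6 and 23.6 CPM in ear skin of the PBS arm, against 129.8, 78.1 and 49.7 CPM in spleen. All ear skin libraries lay below all spleen libraries (-2.098 ± 0.32 and -1.85 ± 0.31). Ldhb was also lower in VAT (-1.02 ± 0.28 in the DT arm, -0.91 ± 0.27 in the PBS arm) and in PBS liver (-0.85 ± 0.29), and the PBS calls of liver (adjusted p = 0.363) and VAT (adjusted p = 0.28) did not pass without spleen replicate 1. Ldhb made up 1.76% ± 0.540 and 2.39% ± 0.484 of the length-scaled Ldhb and Ldha sum in ear skin of the DT and PBS arms, against 9.63% ± 2.06 and 11.2% ± 1.94 in spleen. In the thymus the share had its lowest mean, 12.6% ± 0.876, in P2 cells of D5 and its highest, 21.6% ± 1.40, in P1 cells of D49. Pdk1 was lower in ear skin (-1.06 ± 0.25 in the DT arm, -1.26 ± 0.24 in the PBS arm) and in liver (-0.92 ± 0.24 and -1.04 ± 0.24). It had 57.1, 59.9 and 53.3 CPM in ear skin of the DT arm, against 101, 123 and 141 CPM in spleen, without overlap. Pdk1 was also lower in DT lung (-0.96 ± 0.24) and PBS VAT (-1.13 ± 0.22). Hk1 in DT ear skin (-0.69 ± 0.17) and Pfkfb3 in DT lung (-1.04 ± 0.27) were also lower than in spleen.

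Hif1a was higher than in spleen in lung and liver of both arms and in ear skin of the PBS arm. It had 645, 730.4 and 507 CPM in liver and 506, 569 and 546 CPM in lung of the DT arm, against 333, 293 and 312 CPM in spleen (1.01 ± 0.25 and 0.78 ± 0.25). PBS cells had 421, 671 and 579 CPM in liver, 542, 485 and 549 CPM in lung and 401, 399.5 and 549 CPM in ear skin, against 172, 204 and 252 CPM in spleen (1.44 ± 0.25, 1.38 ± 0.25 and 1.17 ± 0.25). None of these tissue libraries overlapped with spleen. Bnip3, a mitophagy receptor under HIF-1 control, was higher in ear skin of the DT arm (25.3, 8.83 and 24.1 CPM, against 6.82, 2.19 and 3.44 CPM in spleen, 2.23 ± 0.52) and of the PBS arm (23.8, 17.99 and 25.3 CPM, against 5.93, 5.09 and 1.92 CPM, 2.43 ± 0.51). P4ha1, Higd1a and Ddit4 passed in no tissue against spleen.

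The glucose transporters split by tissue. Slc2a3 was higher in VAT than in spleen, by 0.74 ± 0.20 in the DT arm and 0.75 ± 0.20 in the PBS arm, and lower in lung (-1.24 ± 0.22 and -1.12 ± 0.22). It had 296, 250.1, 249 and 242 CPM in VAT and 57.2, 77.8 and 69.3 CPM in lung of the DT arm, against 131, 166 and 182 CPM in spleen, with no overlap of either tissue with spleen. In the PBS arm it had 312, 342, 248 and 201 CPM in VAT and 88.4, 58.2 and 81.9 CPM in lung, against 239, 135 and 148 CPM in spleen, where VAT overlapped with spleen and lung did not. Slc2a1 was higher in ear skin only, by 0.74 ± 0.25 and 0.67 ± 0.24 in the DT and PBS arms, with overlap in the PBS arm.

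Other genes of these pathways, from lists made by name, changed in both directions. In ear skin 2 of 23 genes for other glycolytic isoforms and side steps were higher and 4 lower in the DT arm, and 4 higher and 3 lower in the PBS arm. These counts were near the share of all genes, of which 22.1% and 23.7% changed. Galm, which interconverts the forms of free galactose, averaged 17.6 CPM in ear skin and 77.4 CPM in spleen of the DT arm (-2.11 ± 0.29), and 13.9 CPM and 94.5 CPM in the PBS arm (-2.69 ± 0.30). The sugar transporter Slc2a6 averaged 50.2 CPM in lung and 7.74 CPM in spleen of the DT arm (2.68 ± 0.59), and 37.1 CPM and 2.02 CPM in the PBS arm (4.29 ± 0.67). Of 33 other genes of the hypoxia response, 9 were higher and 2 lower in ear skin of the DT arm and 11 and 2 in the PBS arm, with 9 and 1 and 10 and 1 in liver, 9 and 1 and 9 and 2 in lung, and 8 and 1 and 9 and 2 in VAT of the DT and PBS arms. Of all genes, 10.5% were higher and 11.6% lower in ear skin of the DT arm, and 11.1% and 12.5% in the PBS arm. In the same order, liver had 8.18% and 5.08%, then 9.15% and 7.85%. Lung had 8.48% and 6.15%, then 8.14% and 7.79%, and VAT 5.7% and 3.15%, then 8.67% and 6.27%. Ndrg1, a stress gene induced by HIF-1, averaged 180.1 CPM in ear skin and 31.9 CPM in spleen of the DT arm (2.54 ± 0.29). The repressor Bhlhe40 averaged 864 CPM in liver and 42.0 CPM in spleen of the same arm (4.37 ± 0.37).

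The oxygen-sensing machinery and HIF subunits were tested as a list of 15 genes. Of these, 2 were higher and 2 lower in ear skin of the DT arm and 2 and 3 in the PBS arm, with 2 and 0 and 2 and 1 in VAT, 3 and 0 and 4 and 1 in liver, and 3 and 0 and 6 and 0 in lung of the DT and PBS arms. These are 4 and 5 of 15 in ear skin, where 22.1% and 23.7% of all genes changed, 2 and 3 in VAT (8.85% and 14.9%), 3 and 5 in liver (13.3% and 17%) and 3 and 6 in lung (14.6% and 15.9%). Epas1, the HIF-2 alpha subunit, averaged 34.9 CPM in lung and 3.13 CPM in spleen of the DT arm (3.45 ± 0.63), and 27.3 CPM and 1.38 CPM in the PBS arm (4.36 ± 0.68). Arnt2, a partner subunit of HIF, averaged 332 CPM in ear skin and 19.7 CPM in spleen of the DT arm (4.11 ± 0.47), and 227 CPM and 8.36 CPM in the PBS arm (4.86 ± 0.50). Cited2, an inhibitor of HIF-1 that it also induces, passed as higher in all 4 tissues of both arms, with means of 33.0 to 46.3 CPM across VAT, liver and lung of the DT arm, against 12.9 CPM in spleen.

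Cell cycle genes were higher than in spleen in lung (19 of 27 in each arm), liver (18 in the DT arm and 22 in the PBS arm) and PBS ear skin (17), and in 2 of 27 for DT ear skin and 1 of 27 for VAT of each arm. The share of counts in low genes was 1.27% to 2.18% in DT ear skin and 1.15% to 2.28% in PBS ear skin, against 0.449% to 0.684% and 0.469% to 0.900% in spleen. Summed B cell markers, 8 genes led by Ighm, ran from 789 to 6600 CPM in DT VAT and from 425 to 6015 CPM in PBS VAT, against 1445 to 1902 CPM and 1627 to 1835 CPM in spleen. Most of these sums was Ighm alone, which averaged 3488 CPM in DT VAT and 2840 CPM in PBS VAT. In ear skin they were 247 to 394 CPM in the DT arm and 266 to 623 CPM in the PBS arm, below all spleen libraries. Summed macrophage and monocyte markers were 20.0 to 24.8 CPM in DT ear skin and 12.9 to 21.4 CPM in PBS ear skin, against 6.98 to 8.21 CPM and 8.81 to 9.37 CPM in spleen. Summed fibroblast markers, 8 genes, were 23.3 to 36.0 CPM and 20.1 to 30.7 CPM in ear skin, against 1.40 to 4.37 CPM and 2.80 to 13.9 CPM in spleen, and summed keratinocyte markers, 8 genes, 11.6 to 25.3 CPM and 17.0 to 19.9 CPM, against 3.59 to 7.93 CPM and 2.15 to 11.9 CPM. The highest fibroblast sum of all these libraries was 685 CPM in replicate 7 of DT VAT. The part of the cell cycle genes and of these markers in the results was not tested. With the share of low genes in the model, 13 members passed in DT ear skin and 20 in PBS ear skin. Without the 4 VAT libraries above 4000 CPM of B cell markers, 3 members passed in DT VAT (Egln3, Aldoc and Aldoa) and 12 in PBS VAT. With the compared libraries alone, 7 members passed in PBS liver, 5 in PBS VAT and 13 in DT lung. Leaving out 1 library moved these counts in the DT arm. Lung was at 5 without lung replicate 6. Liver was at 6, 5 and 6 without liver replicates 4, 5 and 6 and at 7, 5 and 4 without spleen replicates 4, 5 and 6, and VAT was at 3, 2 and 3 without those spleen replicates.

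VAT Treg cells were also set directly against ear skin Treg cells. In the DT arm 2 members were higher and 9 lower in VAT, where 13% of all genes changed, 8% higher and 5.01% lower. For PBS cells 3 were higher and 14 lower, where 13.8% changed, 7.97% higher and 5.85% lower. The median of the members was -0.29 and -0.56 in the DT and PBS arms, against -0.04 and -0.09 for all genes. Tpi1 had 181, 241, 155 and 202 CPM in VAT of the DT arm, against 405, 344 and 449 CPM in ear skin (-1.03 ± 0.20), and 206, 279.8, 181 and 244 CPM in VAT of the PBS arm, against 773, 512 and 664 CPM in ear skin (-1.51 ± 0.20). The tissues did not overlap in either arm. Hk2 (-1.68 ± 0.51 in the DT arm, -2.09 ± 0.50 in the PBS arm), Eno2 (-1.93 ± 0.47, -1.94 ± 0.45), Bnip3 (-2.17 ± 0.47, -1.64 ± 0.45) and Slc16a3 (-0.99 ± 0.34, -1.46 ± 0.33) were lower in VAT of both arms. Ldhb (1.08 ± 0.31, 0.94 ± 0.29) and Hk1 (0.69 ± 0.16, 0.60 ± 0.16) were higher. Aldoc (-0.92, -0.90), Pkm (-0.64, -0.75), Pgk1 (-0.59, -0.74) and Aldoa (-0.56 with overlap, -0.56) were lower in both arms as well. Called in the PBS arm alone were Slc2a3, higher by 0.995, and P4ha1 (-0.85), Hif1a (-0.83), Gapdh (-0.81), Slc2a1 (-0.80) and Eno1 (-0.71), all lower. With RLE size factors the median of all genes in this comparison was -0.19 in the DT arm and -0.21 in the PBS arm. Without the 4 VAT libraries high in B cell markers, 2 members were higher and 2 lower in the DT arm and 2 higher and 5 lower in the PBS arm, so that the DT calls no longer lay mostly on the lower side, and Tpi1 was at -0.83 and -1.49. With the share of low genes in the model, 0 were higher and 5 lower in the DT arm. Only 1 of 11 calls in the DT arm and 5 of 17 in the PBS arm held under every alternative setting. The DT count was 5 without ear skin replicate 4 or 6 and 7 without VAT replicate 5, and the PBS count was 9 without ear skin replicate 3.

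Between the arms no member passed in any tissue. DT and PBS cells were compared within each tissue in edgeR, where 0% of all genes passed in spleen, 0% in lung, 0% in liver, 0.411% in ear skin and 0.124% in VAT. At an unadjusted p below 0.05 there were 2 members in spleen, 2 in lung, 0 in liver, 7 in ear skin and 5 in VAT. The same threshold held for 358 of 12453 genes in spleen, 412 of 12046 in lung, 525 of 11962 in liver, 1164 of 12653 in ear skin and 955 of 12067 in VAT. DESeq2 called 1 member in ear skin and 0 in the other tissues. Nearest to the threshold was Tpi1 in ear skin, with 405, 344 and 449 CPM in the DT arm, against 773, 512 and 664 CPM in the PBS arm. The arms did not overlap (log2 fold change -0.68 ± 0.15, adjusted p = 0.061), and without ear skin PBS replicate 2 there was 1 member that passed. Aldoc was at 0.63 ± 0.21 in ear skin (adjusted p = 0.268) and 0.61 ± 0.17 in VAT (adjusted p = 0.322), in each case with every DT library above every PBS library. In spleen Slc16a3 was at 1.57 ± 0.66 (adjusted p = 0.933) and Hif1a at 0.60 ± 0.22 (adjusted p = 0.933). Egln3 in VAT was at -0.94 ± 0.29 (adjusted p = 0.373), with overlap. With standard errors of 0.15 to 0.66 for the genes named here, equal levels in both arms are not shown. Tests of whether the DT against PBS difference itself varied between a tissue and spleen gave 0 members for each of the 4 tissues, where 0%, 0%, 0.0451% and 0.0169% of all genes passed in lung, liver, ear skin and VAT. At an unadjusted p below 0.05 these tests gave 2, 1, 3 and 5 members, against 801, 940, 1127 and 1160 of 17731 genes, and DESeq2 called 1 in ear skin and 0 in the others. The ear skin and VAT counts were 1 each without spleen PBS replicate 3.

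Several members share sequence with other annotated genes, and how the submitters' counting treated such reads is not given in the sources used here. Of the possible 31-base words of its transcripts, Bnip3 shared 70.7% with other annotated genes, Pgk1 68.3%, Gapdh 62.6% and Eno1 53.5%, and their levels are uncertain to that extent, while Slc16a3, Egln3, Slc2a3 and Aldoc shared none. Bnip3 and Higd1a overlap antisense genes over 22.3% and 22.5% of their exon bases and Pkm a gene on its own strand over 15.3%, and whether counting used strand is not given either. Of the 15 tested members that shared under 5%, 0 were higher and 4 lower in P2 than in P1 cells at D5, 3 and 4 at D12, and 2 and 4 at D49. Of the 15 that shared 5% or more, 0 were higher and 10 lower at D5, 0 and 9 at D12, and 0 and 9 at D49. Of all genes, 6.79% were higher and 8.4% lower at D5, 17.6% and 23.8% at D12, and 16.6% and 12.9% at D49. The members lower at every age, Aldoa, Tpi1, Pgk1, Pgam1, Eno1, Pkm and Ldhb, were all among those sharing 5% or more. Pgam1 shared 42.1%, Pkm 34.8%, Ldhb 33.0%, Aldoa 16.9% and Tpi1 16.8%. In ear skin against spleen 5 were higher and 2 lower in the DT arm and 6 and 1 in the PBS arm among those under 5%, and 7 and 1 and 11 and 1 among the others. Of all genes, 10.5% were higher and 11.6% lower there in the DT arm, and 11.1% and 12.5% in the PBS arm. The members did not move as a unit across libraries. The median Spearman correlation over the 465 pairs of members was 0.166 in the 18 thymic libraries, with 304 pairs positive, and 0.113 in the 32 peripheral libraries, with 284 positive. This is a description, since pairs share libraries and the groups differ.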

How the data were processed

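RNA from 500 to 1000 sorted cells per library was sequenced in 50 libraries. The deposited table holds raw counts per gene symbol. Per the submitters' processing notes, the authors aligned reads to mm10 with STAR 2.7.3a and counted them with featureCounts; annotation, strand and multimapping settings are not given in these sources, and the labels' extract protocol describes muscle stem cells, another material than these samples.

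From these counts, levels were computed as TMM-scaled CPM over all 50 libraries, and tests with edgeR 4.0.16 (quasi-likelihood F test; R 4.3.3) after a filter on low counts (filterByExpr, minimum count 10, minimum total 15), in 1 fit over the 18 thymic libraries, 1 over the 32 peripheral libraries, and fits of each tissue's libraries for DT against PBS. P-values were adjusted by Benjamini-Hochberg over all genes tested, with a threshold of 0.05, and SE is the log2 fold change divided by the root of F. The score is the mean log2 CPM with a prior count of 2. No p was adjusted over the members alone and no set test was run. Counts ranged from 2521078 to 6981037 per library, which limits precision for genes of a few CPM.

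The members and the other lists were chosen with earlier results of these data known. All 31 members could be named, and from each other list up to 4 genes with the smallest adjusted p per comparison, with Foxp3 and Il2ra as sort checks. Alternatives were DESeq2 1.42.0, RLE size factors, no filter, the compared libraries alone, a replicate block, and leaving out each library. The share of counts in genes averaging under 1 CPM was used as a covariate. Its use for the peripheral libraries, leaving out 4 VAT libraries and leaving out D49 P2 replicates 2 and 3 were chosen after seeing the data. Exon lengths and shared 31-base words came from GENCODE M21 (mm10), promoters from RefSeq (GRCm38.p6). The procedure was tested on simulated data.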

Additional observations from a re-analysis of the deposited data

Results flagged for a closer look

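In the groups of 4 VAT libraries, 1 library stood far from the other 3 for 7 members, by Dixon's criterion at the 95% level. Both groups were tested for 32 measures, of which chance finds about 1 in 20 groups. In the DT arm Slc2a3 was at 296.1 CPM in replicate 5, against 241.7 to 250.1 CPM in the others, and Pfkfb4 was at 3.39 CPM in the same library, against 9.25 to 10.1 CPM. Egln3 was at 20.7 CPM in replicate 8, against 47.5 to 49.3 CPM, so the lowest Egln3 library of VAT still lay above all spleen libraries. Higd1a was at 40.2 CPM in replicate 6, against 27.2 to 28.0 CPM. In the PBS arm Pfkfb3 was at 60.4 CPM and Pgk1 at 71.7 CPM in replicate 1, against 34.2 to 36.2 CPM and 98.1 to 102 CPM in the others. P4ha1 was at 49.2 CPM in replicate 2, against 86.1 to 91.9 CPM.

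The change of Pdk1 between D5 and D49 differed between the populations, being larger in P2 than in P1 cells by 0.95 on the log2 scale in the test of the difference itself (adjusted p = 0.0354, edgeR). It did not pass in 12 of 18 alternative settings, with adjusted p values up to 0.176.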

How the results depend on the processing

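Counts of members called kept within 1.5 times of the reported count under every alternative other than those given here. At D12 against D5 in P1 cells (7 reported) the count was 14 with the compared libraries alone and 0 with the share of low genes as a covariate. At D49 against D12 in P1 cells (14) it was 4 with the covariate, where Eno2 turned to -0.12 (adjusted p = 0.966) and Gapdh to -0.35 (adjusted p = 0.444). At D12 against D5 in P2 cells (1) it was 10 alone, 3 with DESeq2, 4 with the covariate and 0 with a replicate block. At D49 in P2 cells it was 5 alone and 7 with the covariate against D5 (13), and 2 in each case against D12 (13). The difference of the D5 to D49 change between populations (1) gave 3 with DESeq2, 2 without the filter, 0 with the covariate and 0 with the block. Against spleen, the libraries alone gave 7 in PBS liver (13), 5 in PBS VAT (11) and 13 in DT lung (8). In DT VAT against spleen (6) the block gave 3 and leaving out the VAT libraries high in B cell markers 3. In VAT against ear skin of the DT arm (11) the covariate gave 5, the block 5 (4 higher, 1 lower) and leaving out those libraries 4, and in the PBS arm (17) leaving them out gave 7. Between DT and PBS (0) DESeq2 gave 1 and no filter 1 in ear skin, and no filter 2 in VAT. For the DT effect relative to spleen (0) DESeq2 gave 1 and no filter 1 in ear skin, and no filter 1 in VAT. The causes were not tested.

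Leaving out 1 library at a time gave 9 to 12 members for P2 against P1 cells at D5, 13 to 16 at D12 and 13 to 16 at D49. Between ages it gave 4 to 7 (D12 against D5), 5 to 8 (D49 against D5) and 9 to 12 (D49 against D12) in P1 cells, 0 to 0, 8 to 15 and 7 to 13 in P2 cells, and 0 to 8 for the difference of the change. Against spleen the PBS arm gave 5 to 8 in lung, 9 to 15 in liver, 14 to 18 in ear skin and 8 to 13 in VAT, and the DT arm 5 to 7, 4 to 7, 11 to 14 and 2 to 6. VAT against ear skin gave 5 to 10 in the DT arm and 9 to 16 in the PBS arm. DT against PBS gave 0 to 1 in ear skin and 0 in the other tissues, and its difference from spleen 0 to 1 for ear skin and VAT and 0 for lung and liver.

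Of 219 single calls, 2 were lost with DESeq2, 4 with RLE size factors, 32 without the filter, 21 with the replicate block, 63 with the covariate and 42 of 218 with the compared libraries alone. Same-numbered libraries had weak correlations of their deviations (-0.186 to 0.143, and in 0 of 19 comparisons above 0.1 for every pair), and unpaired tests were used. With 2 or 3 same-numbered pairs per comparison, this cannot exclude that libraries of the same number came from the same animal. In liver against spleen of the DT arm same-numbered pairs were at 0.039 to 0.107, against -0.108 to 0.028 for the other pairs. No paired analysis was possible for DT against PBS because these arms share no replicate numbers. Low counts limit Vegfa, and precision is poor for Egln3, Slc16a3 and Eno2 in groups where they are at a few CPM.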
